A study of Homo sapiens and Mus musculus with 9 samples.

Results

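The data are the peaks that 2 small RNA libraries of HEK293 cells formed on mRNAs, 1 library labelled capped small RNA (cap) and 1 labelled total small RNA (total). All 12171 peaks of both libraries were taken, sense and antisense to the mRNA, which are also all the peak lists of the study. They comprise 6331 peaks of the cap library and 5840 of the total library. Both libraries came from the human embryonic kidney line HEK293 with wild-type genotype, and both are titled as control with no treatment named. The study as a whole holds 9 samples and concerns RNAs that bind an mRNA in trans and alter its translation; its other libraries are ribosome profiling (Ribo-seq) of the same line and RNA-seq of mouse liver. Per the labels' protocols, a small RNA fraction was taken from total RNA on a column, treated with a phosphatase and then divided. The larger portion was decapped with an acid pyrophosphatase and the smaller one phosphorylated with a polynucleotide kinase. The labels do not write out which portion became which library. There was 1 library of each kind, so no difference below was tested against the spread between cultures. Brackets hold exact 95% Clopper-Pearson intervals, which speak for the error of counting alone, because amplified reads that carry no molecular identifier can stem from 1 molecule.

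RNA polymerase II transcripts receive a 7-methylguanosine cap at their first nucleotide soon after transcription starts, and the cap protects the 5' end and recruits the translation initiation machinery. Phosphatase removes the exposed phosphates of cleaved RNA but leaves a capped end closed, so later decapping opens it for an adapter. Short capped RNAs from the starts of genes are known from paused polymerase. Pieces of mature mRNA, tRNA and small nuclear or nucleolar RNA carry other ends, although many small nuclear RNAs and a few small nucleolar RNAs are capped as well.

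A peak is a position on 1 transcript per gene, given as its distance from the start codon, with the number of reads there and a region, the 5' UTR, the coding region (CDS) or the 3' UTR. The sources used here do not say what point of a read the position marks. The lowest value listed was 4 reads, and 25.7% of cap and 24.8% of total sense peaks stood at it. A gene without a listed peak may therefore still have had reads. The sense lists held 4521 peaks on 3072 genes with 637679 reads in cap, against 3416 peaks on 2063 genes with 536974 reads in total. On the antisense strand there were 1810 peaks on 1338 genes with 78796 reads in cap, against 2424 peaks on 1709 genes with 119784 reads in total. These read sums are not the depth of the libraries, which is unknown. Peaks served poorly to check the cell line. Of the HEK293 markers VIM, NEFL, NEFM, NEFH, PAX2 and LHX1, NEFL had 113 antisense reads in cap and 647 in total plus 4 sense reads in total, PAX2 had 9 antisense reads in total, and the others had no peak. ALB, PTPRC and EPCAM, markers of other cell types, had none, and COL1A1 had 13 antisense reads in cap and 10 in total.

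Sequences are shown first where cap peaks met an annotated transcript start, because cap peaks met such starts far more often than total peaks. For 5' UTR sense peaks 15 to 47 nt upstream of the start codon, on symbols with 1 promoter in the RefSeq table (build GRCh38.p14), it was asked whether an ATG stands that same distance after the RefSeq start. It did for 70 of 245 cap peaks, or 28.6% (23.0 to 34.7), on 70 genes. In the total library it did for 1 of 29 peaks, or 3.45% (0.0873 to 17.8). When the cap peaks were moved against the annotated start by up to 15 nt either way, the best other offset was 3 nt downstream, with 12 of 232 peaks or 5.17%. Each line gives 20 bases before the RefSeq start in lower case and the first 10 bases from the start in capitals. They are 6 of the 8 genes that start with C followed by 4 pyrimidines, the start known of mRNAs with a terminal oligopyrimidine (TOP) tract, then the most read of the other genes and 2 members of gene groups described below.
EIF4A2 (chr3:186783557-186783586, plus strand): gggtggttgggcgccgctgtCTTTTCAGTC
RPL22L1 (chr3:170870186-170870215, minus strand): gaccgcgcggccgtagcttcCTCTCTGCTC
RPS6 (chr9:19380227-19380256, minus strand): gcgctaagcggaagttggccCTCTTTTCCG
RPL13A (chr19:49487588-49487617, plus strand): ccctgcgacaaaacctcctcCTTTTCCAAG
RPL37A (chr2:216498824-216498853, plus strand): cctgcgcaccgcgtctcttcCTTTCTGGGC
RPL27A (chr11:8682772-8682801, plus strand): gagacttggcgaaggccttcCTTTTTCGTC
H2AC11 (chr6:27133023-27133052, plus strand): ccgcctttcccgttcactttGTGGTTGCTC
MED29 (chr19:39391358-39391387, plus strand): ggatgctgaaaagcaacgggGAGAGACGCA
NOP56 (chr20:2652612-2652641, plus strand): cgccggagcgcgctagccgcATTGCGAGCC
POLR2L (chr11:842520-842549, minus strand): gcggccgggccgggccgggcAGTCTGGGAC
MRPS26 (chr20:3046032-3046061, plus strand): cgtcccggcaccgcggccgcAGTGAGGAGA
At these starts the cap library had 140 reads on the histone gene H2AC11, 58 on the Mediator subunit MED29, 48 on EIF4A2, a helicase of translation initiation, and 46 on NOP56, a core protein of box C/D small nucleolar ribonucleoproteins. None of these 4 genes had a sense peak in the total library.

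The first base of the annotated transcript was G in 45.7%, A in 42.9% and C in 11.4% of the 70 genes, and T in 0%. Among all 22114 promoters with a single symbol the first base was G in 32.4%, A in 44.3%, C in 15.2% and T in 8.09%. The base before the start was C in 74.3% of the 70 genes, against 49.4% of all promoters, and the pair CA across the start was found in 38.6% against 29.1%. A C followed by 4 pyrimidines opened 8 of the 70, or 11.4%, against 3.98% of all promoters. All 5 ribosomal protein genes of the 70 (RPL13A, RPL22L1, RPL27A, RPL37A and RPS6) were among these 8. The 70 genes all have short 5' UTRs by the way they were found, and the comparison with all promoters does not allow for that.

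The motif TATAAA, the classical letters of the TATA box, was searched on the coding strand alone, from 40 to 15 bases upstream of the start. It stood in 8 of the 70 genes, or 11.4%, and in 2.84% of all promoters. Of the 8, 6 were histone genes, out of 7 histone genes among the 70, and the others were EIF4A2 and RPL22L1. Windows of H2AC11, H3C10 and EIF4A2 show its place, with the motif in capitals in 30 bases that begin 40 bases upstream of the start.
H2AC11 (chr6:27133003-27133032, plus strand): aatagtgttTATAAAaagcgccgcctttcc
H3C10 (chr6:27810011-27810040, plus strand): actctcacTATAAAtaagcggctagctttc
EIF4A2 (chr3:186783537-186783566, plus strand): gccacgagccTATAAAaaacgggtggttgg
The first base of the motif lay 31 bases before the start in H2AC11, 32 in H3C10 and 30 in EIF4A2. A match is a description of letters and not of a bound site.

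**Figure D1:**
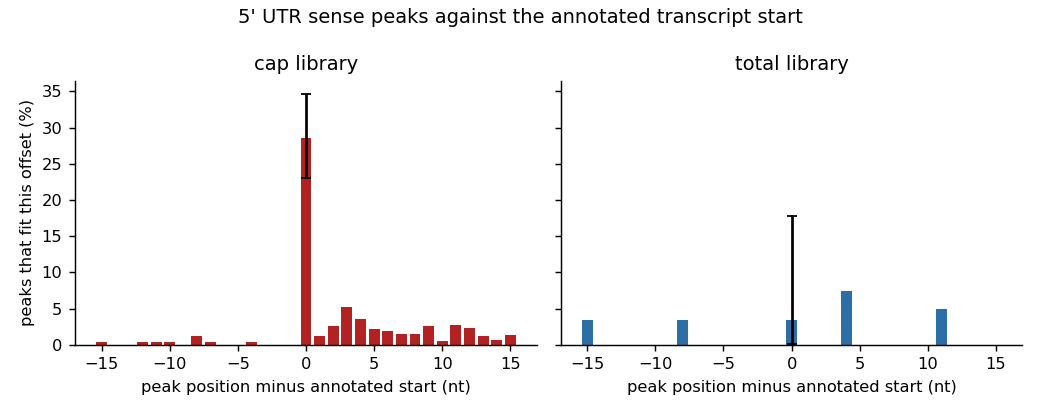
Share of 5' UTR sense peaks (%, bars) with an ATG where the offset on the x axis requires the start codon. The offset is peak position minus RefSeq transcript start (nt). The cap library is left and the total library right, with exact 95% intervals as lines at offset 0. The cap bar at offset 0 stands at 28.6% and no other cap bar passes 5.17%, while the total library had 29 peaks to place and 1 at offset 0.

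The comparison of genes asks which mRNAs gave capped small RNA, total small RNA or both. Sense peaks were found on 4172 genes, of which 2109 (50.6%) had peaks in the cap library only, 963 (23.1%) in both and 1100 (26.4%) in the total library only. The 5' UTR carried this. There, 1872 of 2123 genes (88.2%, 86.7 to 89.5) had a peak in the cap library only, 111 (5.23%) in both and 140 (6.59%) in the total library only. In the CDS the order was the other way, with 448 genes in cap only, 449 in both and 881 in total only, out of 1778. In the 3' UTR 190 genes were in cap only, 190 in both and 395 in total only. The share in cap only was thus 25.2% (23.2 to 27.3) for the CDS and 24.5% (21.5 to 27.7) for the 3' UTR, and neither interval reaches that of the 5' UTR.

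Antisense peaks differed less between regions. Of 2272 genes, 563 (24.8%) had antisense peaks in cap only, 775 (34.1%) in both and 934 (41.1%) in total only. The share in cap only was 31.7% (26.6 to 37.2) of 312 genes for positions opposite the 5' UTR, 24.1% (21.9 to 26.5) for those opposite the CDS and 26.7% (23.4 to 30.1) for those opposite the 3' UTR. The interval opposite the 5' UTR overlapped that opposite the 3' UTR and lay just above that opposite the CDS. The longer total list was also cut to its highest peaks by reads, leaving out ties at the limit. This set 1810 cap peaks of at least 4 reads against 1673 total peaks of at least 6. Antisense genes in cap only then numbered 703 and those in total only 551. Which library had more antisense genes of its own thus depends on the limits set, which were stricter for total here.

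**Figure D2:**
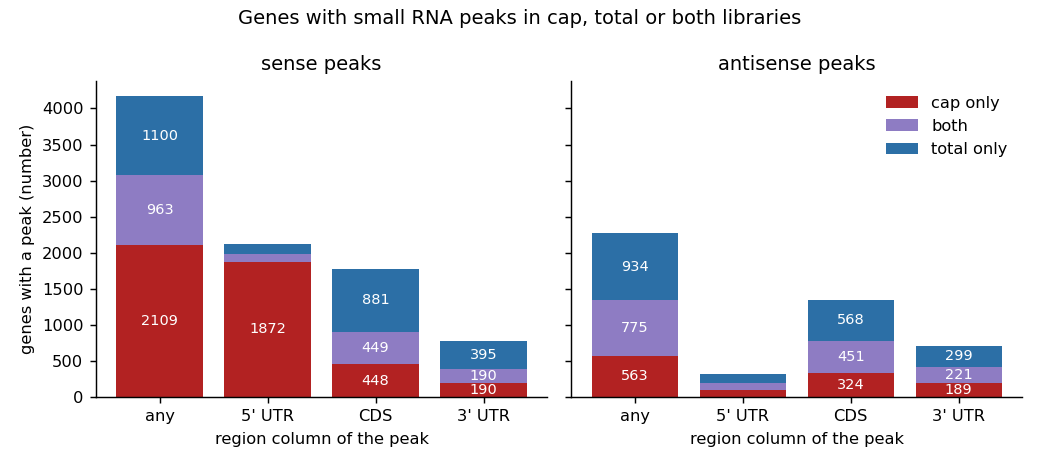
Number of genes (y axis) with peaks in the cap library only, both libraries or the total library only, for any region and for each region column (x axis), sense left and antisense right. The sense 5' UTR bar is nearly all cap only (1872 of 2123 genes), while CDS and 3' UTR bars hold more total-only than cap-only genes on both strands.

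Among the 1983 genes with a cap peak in the sense 5' UTR, 1575 had no sense peak at all in the total library. A further 111 had a total peak in the 5' UTR and 297 had total peaks outside it alone. A single 5' UTR cap peak was listed on 1524 of these genes, 2 on 327 and 3 or more on 132. Conversely 74.7% of the cap-only genes had a 5' UTR peak, and 1516 of them had nothing else.

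Counted as peaks, 61.7% (60.3 to 63.2) of cap sense peaks lay in the 5' UTR, against 12.8% (11.7 to 14.0) of total sense peaks. The CDS held 23.9% of cap and 56.9% of total sense peaks, and the 3' UTR 14.4% of cap and 30.2% of total. Antisense peaks had near-equal shares in both libraries, with 13.3% of cap and 12.8% of total peaks opposite the 5' UTR, 54.3% and 55.4% opposite the CDS in cap and total, and 32.4% and 31.8% opposite the 3' UTR. Antisense reads were not so even, with 20.6% in cap and 36.2% in total opposite the 5' UTR, and 57.0% in cap and 40.8% in total opposite the CDS. The sense 5' UTR took 48.5% of reads in cap and 25.4% in total. The sense read shares also leaned on a few genes. Without the 10 genes with the most reads of either library they were 42.1% in cap and 8.60% in total.

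Within the 5' UTR, cap peaks, counted without regard to their reads, grew denser towards the start codon. Counts were not adjusted for how many 5' UTRs extend to each distance, which falls with distance from the start codon. From 50 nt upstream to the start codon the cap library had 624 sense peaks (12.5 per nt), against 75 in total. From 100 to 51 nt upstream the density was 9.62 per nt in cap and 1.04 in total. Over the first 50 nt of the CDS it was 3 per nt in cap and 1.74 in total, and over the next 50 nt it was 1.06 in cap and 1.84 in total, where total was the denser library. The median 5' UTR cap peak lay 137 nt upstream (quartiles 57 to 288), against 331 nt (83 to 448) in total, but 155 of the 438 total peaks there belonged to WDR74, all of them more than 300 nt upstream. Without WDR74, an alternative chosen after seeing the data, the median was 128 nt (54 to 250) in cap and 133 nt (46.5 to 292) in total, so the libraries differed in the number of 5' UTR peaks and hardly in their median distance. Weighted by reads, only 4.60% of cap sense reads and 3.18% of total sense reads lay in the 300 nt before the start codon, where 46.8% of cap and 6.32% of total sense peaks lay. The positions 4 and 3 nt upstream of the start codon had 34 cap peaks each, 68 in all on 66 genes, against 4 in total. In the antisense lists the 50 nt upstream of the start codon had 30 cap and 41 total peaks.

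**Figure D3:**
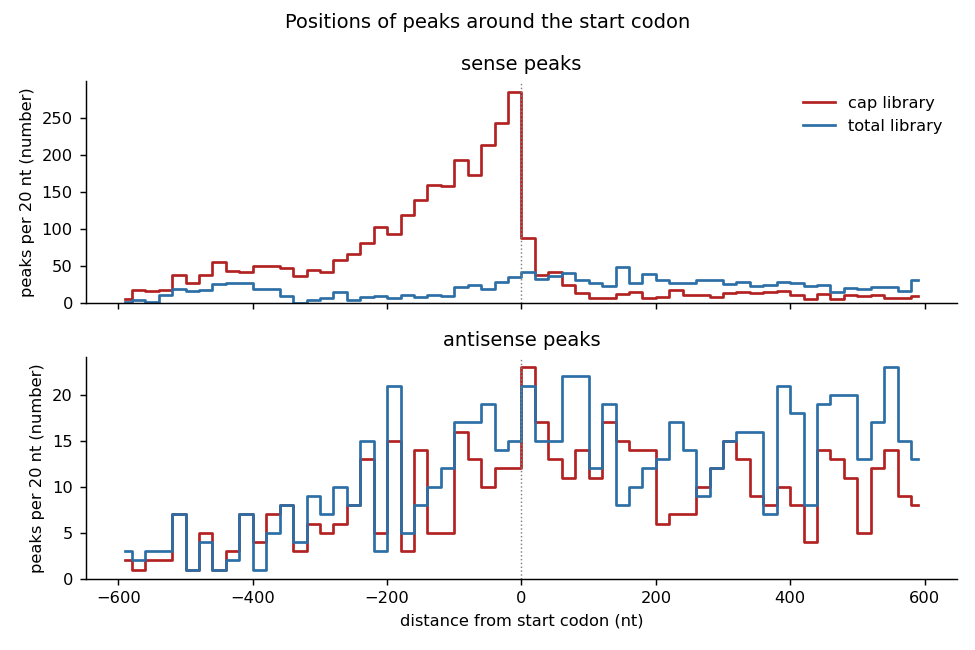
Number of peaks per 20 nt (y axis) by distance from the start codon (x axis, nt) for the cap and total libraries, sense above and antisense below; the dotted line marks the start codon. Sense cap peaks climb towards the start codon and drop past it. Cap has 624 in the last 50 nt before the start codon and 150 in the first 50 nt of the CDS. Total has 75 and 87. Counts are not adjusted for how many 5' UTRs extend to each distance. Of the 438 total 5' UTR peaks, 155 are those of WDR74, more than 300 nt upstream.

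Within the CDS, the second codon position held the smallest share of sense peaks in both libraries. In frame with the start codon were 35.2% (32.3 to 38.1) of cap sense CDS peaks and 39.9% (37.7 to 42.1) of total sense CDS peaks. For antisense peaks the share was 31.5% (28.6 to 34.5) in cap and 32.6% (30.1 to 35.2) in total. The second position held 30.0% (27.3 to 32.8) of cap and 27.7% (25.7 to 29.8) of total sense CDS peaks. An even spread over 3 frames lies outside at least 1 interval of each sense list, and inside every interval of both antisense lists.

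Positions were matched next, to see whether the libraries shared ends. On the sense strand 1047 positions were listed in both libraries, which is 23.2% of cap peaks and 30.6% of total peaks. In the 5' UTR this was 8.06% (7.08 to 9.13) of cap peaks, although the same 225 positions were 51.4% of the few total peaks there. WDR74 alone had 148 of the 2791 cap and 155 of the 438 total peaks in the 5' UTR, and sharing was not counted without it. In the CDS 43.8% of cap and 24.3% of total peaks were shared, and in the 3' UTR 53.8% of cap and 33.8% of total. On the antisense strand 938 positions were shared, 51.8% of cap and 38.7% of total peaks. Across shared positions, which are not independent replicates, reads in cap and total went together loosely, with a Spearman rho of 0.57 for 1047 sense and 0.54 for 938 antisense positions, given as a description.

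The genes with the most cap reads and no total peak were headed by FTL, the light chain of the iron store ferritin. FTL had 2640 cap reads in 5 peaks, 2574 of them at the single position 199 nt upstream of the start codon. SLBP, which binds the stem-loop of histone mRNAs, had 284 cap reads, with its top peak 131 nt upstream. FZD4, a Wnt receptor, had 264, with 240 of them 310 nt upstream. ARL16, a small GTPase, had 230 in 7 peaks, and TAF15, a FET family RNA-binding protein, had 225 in 1 peak 86 nt upstream. MMEL1, a membrane metalloendopeptidase, was the exception among these 6, with all its 291 cap reads at 1 CDS position. These genes had high values for their class: the median cap-only gene had 6 reads, and 251 of the 2109 (11.9%) had at least 20.

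Genes seen in the total library only looked different. EEF1A1, the elongation factor that brings aminoacyl-tRNA to the ribosome, had 355 total reads scattered over 34 peaks. MT-CO1, a mitochondrially encoded subunit of cytochrome oxidase, whose transcript carries no cap, had 310 reads over 41 peaks. ACTG1, cytoplasmic gamma actin, had 190 reads over 18 peaks, which near-identical copies could share. The other 3 had a single position each: KCNJ15, a potassium channel, with 306 reads in the 3' UTR, ACSS3, a short-chain acyl-CoA synthetase, with 231 in the CDS and ENOX1, a cell surface oxidase, with 174 in the CDS. Of the 6 genes, 3 thus had many peaks and 3 had 1. Among the 3 with many, the highest peak held 98 reads in EEF1A1, 78 in ACTG1 and 22 in MT-CO1.

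Read totals in both libraries were ruled by a few loci, and RefSeq's gene table (GRCh38.p14) lists a small RNA gene or pseudogene inside several of them. Here and below, such genes were sought over the whole gene span on either strand, whether or not a peak lay on them. How many genes at large hold one was not counted. WDR74, with the U2 small nuclear RNA gene RNU2-2 in its span, had 274158 sense reads in cap and 117389 in total, which is 43.0% of cap and 21.9% of total reads. TMEM107, which holds the box C/D small nucleolar RNA gene SNORD118 (U8), had 121576 in cap and 68309 in total. CTC1, with tRNA genes in its span, went the other way, with 27558 in cap and 208736 in total, or 4.32% of cap and 38.9% of total reads. As background, U2 and U8 RNA are known to be capped and mature tRNA is not. TUT1, a terminal uridylyltransferase, had 111409 in cap and 18084 in total, in 5 peaks in each library. No small RNA gene was listed in its span, and other kinds of noncoding gene were not searched for. ZNF354B, with the U1 pseudogene RNU1-39P, had 10492 in cap and 14489 in total. PREP, a prolyl endopeptidase, had 182 in cap and 12396 in total, nearly all at 1 position 68 nt upstream of its start codon.

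For genes in both libraries the reads were compared as shares of each library's peak reads on that strand, as log2 of cap over total. Of the 963 sense genes, 274 (28.5%) were at least 2-fold higher in cap and 215 (22.3%) at least 2-fold lower, and the median log2 ratio was 0.24. The counts moved with the scaling. With reads as deposited it was 353 higher and 176 lower, with a median of 0.49, and after centring on the median it was 217 higher and 252 lower. Of the 775 antisense genes, 390 (50.3%) were higher in cap and 94 (12.1%) lower, with a median of 1.02. With reads as deposited the antisense count was 265 higher and 151 lower, with a median of 0.42, and after centring 169 higher and 202 lower. Cap was the more often higher library on both strands with shares and with reads as deposited, by margins that differed. Centring sets the balance near even by its construction. Of the reads behind the shares, 43.0% of cap sense reads and 25.2% of total antisense reads lay on 1 gene each.

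The highest sense ratios belonged to FTCD, a folate enzyme, with 1780 reads in cap and 14 in total (log2 ratio 6.74, 5.99 to 7.62), and SAP30BP, a splicing and transcription regulator, with 1016 in cap and 8 in total, both in the CDS. IER2, an immediate early gene, had 849 reads in cap and 11 in total, both with the top peak 132 nt upstream of the start codon (6.02, 5.18 to 7.03). HSPA1B, an inducible HSP70 gene with a near-identical copy, had 118 in cap and 4 in total. RAN, the GTPase of nuclear transport, had 145 in cap and 6 in total, and SRSF2, a splicing factor, had 78 in cap and 4 in total. In HSPA1B and RAN the top cap peak lay in the 5' UTR and the lone total peak in the CDS.

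At the other end, ATAD5, an unloader of the replication clamp, had 8 reads in cap and 4499 in total (-9.38, -10.60 to -8.40), with the U6 pseudogene RNU6-298P in its span. MSANTD1 had 11 in cap and 1796 in total. ATP5MC3, a subunit of ATP synthase, had 4 in cap and 403 in total, ZNFX1 4 in cap and 378 in total and FRMPD1 4 in cap and 257 in total, the last with the 7SK pseudogene RN7SKP171 in its span. COX7C, a cytochrome oxidase subunit that hosts SNORD138, had 136 in cap and 6397 in total. Cap reads of these genes ran from 4 to 136. The log2 ratio of ATP5MC3 was -6.90 (-8.79 to -5.54), an interval that shows how few counts stand behind it.

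**Figure D4:**
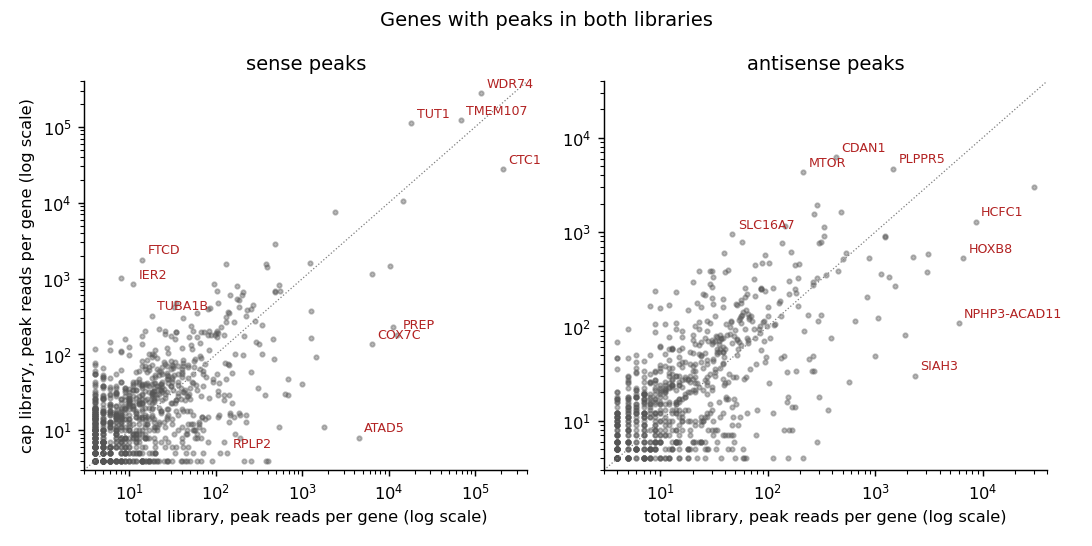
Peak reads per gene in the cap library (y axis, log scale) against the total library (x axis, log scale) for genes with peaks in both libraries, 963 sense left and 775 antisense right; each point is a gene and the dotted line marks equal reads. Points scatter widely about the line, with FTCD and IER2 far above it and ATAD5, PREP and COX7C far below it on the sense strand.

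Among these 963 genes, the place of most reads was often not the same in each library. In 193 genes it was the 5' UTR in cap and the CDS in total, and in 51 it was the 5' UTR in cap and the 3' UTR in total. The reverse, CDS or 3' UTR in cap with 5' UTR in total, was found in 7 and 2 genes. The CDS led in both libraries in 414 genes, the 3' UTR in 175 and the 5' UTR in 101. On the antisense strand 442, 216 and 81 of 775 genes had the CDS, the 3' UTR and the 5' UTR leading in both.

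Gene groups were read against the 50.6% of all sense genes in cap only and the 26.4% in total only, by counts alone. Ribosomal protein genes, whose copies and pseudogenes make each assignment uncertain, had 5 of 65 members in cap only (7.69%), 26 in both and 34 in total only (52.3%). Their peaks lay in different places: 30 of 65 had a cap 5' UTR peak, but 3 had a cap peak in the CDS or 3' UTR, whereas 58 had a total peak there. As shares these are 46.2%, 4.62% and 89.2%, beside 47.5%, 30.0% and 44.4% of all sense genes. Of the peaks on this group 42 of 46 were in the 5' UTR in cap and 11 of 187 in total. RPLP1 of the ribosomal stalk had 69 reads in cap, 60 of them 129 nt upstream, and 17 in total, all in the CDS. RPL37 had 13 in cap and 140 in total, and RPLP2 had 5 in cap and 135 in total. RPS6, whose pyrimidine start is printed above, had 11 in cap, all at that start, and 6 in total, all in the CDS. RPL27A had 4 reads at its printed start in cap and 67 in the CDS in total.

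Of other mRNAs of the TOP class, 2 of 16 were in cap only (EIF4A2 and EIF3A), 6 in both and 8 in total only. Of their peaks 10 of 11 were in the 5' UTR in cap and 1 of 62 in total. For members in both libraries the median log2 ratio was 0.34 in this group and -1.08 in ribosomal proteins, beside 0.24 for all sense genes. RACK1, a ribosome-bound scaffold, had no cap peak and 67 reads in total, and PABPC1, the poly(A)-binding protein, had 36 reads in cap in the 5' UTR and 5 in total in the CDS. Protein-coding hosts of small nucleolar RNAs, which include many ribosomal protein genes, counted 9 of 52 in cap only, 23 in both and 20 in total only, and 42 of them (80.8%, against 44.4% of all sense genes) had a total peak in the CDS or 3' UTR.

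Mitochondrial ribosomal proteins, nuclear genes of a smaller ribosome, stood at the opposite end. Of 26, 22 (84.6%) were in cap only, 2 in both and 2 in total only. MRPL34 had 50 reads in cap, MRPL38 had 27 and MRPS24 had 16, all in the 5' UTR, and none of the 3 had a total peak. These were high for the group. Its 24 members with a cap peak had a median of 7 cap reads. The lowest had 4, the floor of the lists. The exception by reads was MRPL42, with 9 reads in cap and 167 in total, where the total reads lay in the 3' UTR and a 7SL pseudogene, RN7SL737P, is listed in the span. MRPS26, printed above, had 10 cap reads and no total peak.

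A group of RNA polymerase II subunits, TAF and general factors and pausing factors had 20 of 25 (80%) in cap only, 2 in both and 3 in total only. The 20 include TAF1B and TAF1D, which serve RNA polymerase I, and TAF15, named above as a FET family protein. Of 25, 20 had a cap 5' UTR peak (80%, against 47.5% of all sense genes) and 0 a total 5' UTR peak, which 6.02% of all sense genes had. POLR2A, the largest subunit, had 122 reads in cap, all in the 5' UTR, and 40 in total, all in the CDS. NELFE, a subunit of the pausing factor NELF, had 35 reads in cap, and HEXIM1, an inhibitor of P-TEFb, had 30. Neither had a total sense peak. CCNT1, a cyclin of P-TEFb, had no cap sense peak and 28 sense reads in total.

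Histone genes, also near-identical copies, had 13 of 21 in cap only, 4 in both and 4 in total only. H2AC11 had 140 reads in cap at its printed start, the replacement histone H3-3B had 70, and H2AX, the variant phosphorylated at DNA breaks, had 56, and none of these had a total peak. H4C3 went the other way from these, with 6 reads in cap, in the 5' UTR, and 35 in total, in the CDS. The 4 genes in total only had 8 reads (H1-2), 5 (H2BC8), 4 (H2AC12) and 4 (H2AC25). Immediate early genes, which answer stimuli without new protein synthesis, counted 13 of 21 in cap only, 6 in both and 2 in total only. IER3 had 50 cap reads and CCN1 had 20, all in the 5' UTR and with no total peak, while EGR2 had 141 cap reads in the CDS and KLF2 had 350 in cap and 143 in total at the same 3' UTR position.

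Serine/arginine-rich (SR) splicing factors and hnRNPs were mixed, with 11 of 27 in cap only, 10 in both and 6 in total only. SRSF6 had 162 reads in cap and SRSF7 had 121, all in the 5' UTR, and neither had a total peak. HNRNPL and HNRNPU had their top peak at the same CDS position in both libraries, with 231 reads in cap and 115 in total for HNRNPL and 182 in cap and 87 in total for HNRNPU. HNRNPD, an AU-rich element binder, had no cap sense peak and 18 reads in total.

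In the other groups of at least 20 genes the share lay within 10 percentage points of that of all genes. In cap only were 63 of 108 ZNF zinc finger genes (58.3%), 26 of 50 proteasome and ubiquitin genes (52%), 14 of 27 heat shock protein genes (51.9%), 17 of 35 nuclear respiratory chain genes (48.6%), 31 of 66 solute carriers and 11 of 24 homeobox genes (45.8%). Smaller groups were 7 of 18 microRNA host genes, 4 of 8 genes of the integrated stress response, 2 of 5 of cholesterol synthesis and 1 of 7 actins and tubulins. ATF4, the target named by the study, had no listed peak in either library. Among its targets, cap reads were 67 on SLC7A5, an amino acid transporter, and 39 on SESN2, a stress-induced inhibitor of growth signalling. Neither had a total sense peak. The target SLC38A2 had no cap sense peak and 11 reads in total. DGCR8, whose mRNA carries hairpins cut by the microprocessor it belongs to, had 4 reads in cap in the CDS and 209 in total at 1 position 202 nt upstream of the start codon.

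**Figure D5:**
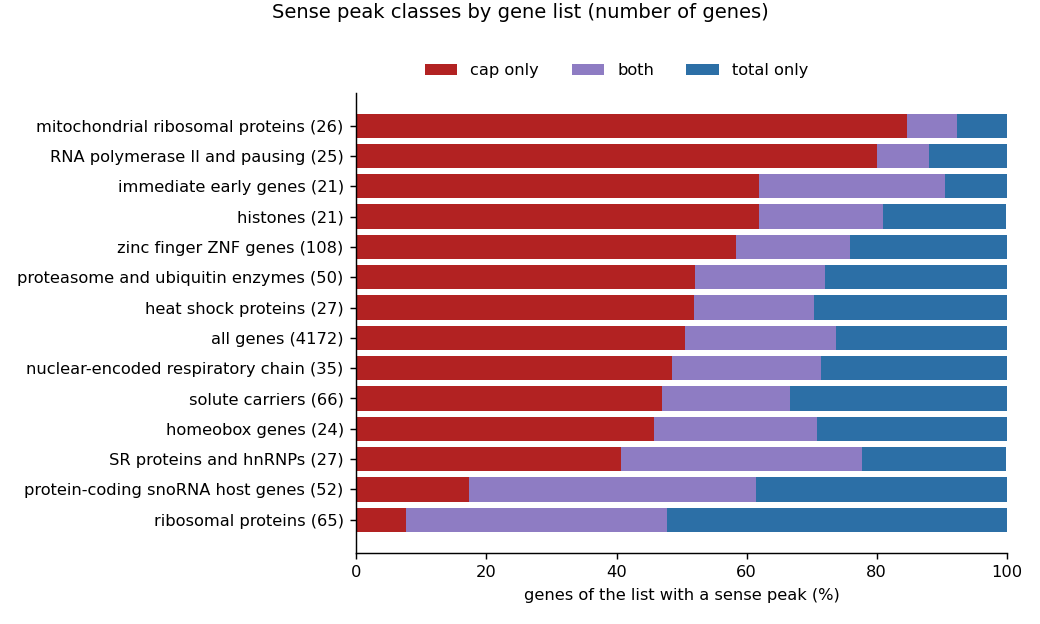
Share of genes with a sense peak (x axis, %) that had it in the cap library only, both or the total library only, for gene groups of at least 20 genes and all genes, with the number of genes after each name. Mitochondrial ribosomal proteins stand at the top with 84.6% in cap only and ribosomal proteins at the bottom with 7.69%, against 50.6% of all genes.

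Antisense peaks, found on 2272 genes against 4172 with sense peaks, fell unevenly on these groups. None of the TOP factors, 2 ribosomal protein genes, 2 histone genes and 5 genes of the polymerase group had one. They were on 51 ZNF genes and 41 solute carriers, fewer than the 108 and 66 with sense peaks, and on 27 homeobox genes, more than the 24 with sense peaks. Of the homeobox genes 6 were in cap only, 13 in both and 8 in total only. The transcript ENST00000695456, which the reference tables do not name, held the most antisense reads, with 2988 in cap and 30157 in total, at the same top position 180 nt upstream of its start codon. HCFC1, a chromatin-bound cell cycle regulator, had 1290 in cap and 8654 in total, and HOXB8, a homeobox gene, had 526 in cap and 6595 in total. CDAN1, a gene of dyserythropoietic anemia, had 6206 in cap and 435 in total at 1 CDS position. MTOR, the growth kinase, had 4329 in cap and 214 in total. U6 pseudogenes and a small nucleolar RNA gene are listed in the span of MTOR, and their overlap with its peaks was not tested. MYL12B, a myosin light chain, had no antisense peak listed in cap and 392 antisense reads in total.

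Genes with peaks on both strands in 1 library were counted too. The number of genes searched for peaks is unknown, so this overlap is not read as small or large. In cap there were 306, which is 9.96% of its 3072 genes with sense peaks and 22.9% of its 1338 genes with antisense peaks. In total there were 273, which is 13.2% of its 2063 genes with sense peaks and 16.0% of its 1709 genes with antisense peaks. The order of the libraries thus turned with the strand taken as the whole.

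The control Ribo-seq library of the same line, a measurement independent of the peak lists, gave footprints per 1000 nt of coding region for part of the transcripts. The median was 299 for 1278 transcripts with sense peaks in cap only, 264 for 501 with peaks in both and 258 for 505 with peaks in total only. For transcripts with a cap 5' UTR peak it was 332, for those with antisense peaks alone 151 and for those without any peak 236. The classes overlapped widely, with quartiles of 113 to 921 in cap only and 80.1 to 1912 in total only. With peaks of at least 8 reads the medians were 296 in cap only, 180 in both and 328 in total only, so the order of cap only and total only was not kept. A value was had for 60.6% of cap-only, 52.0% of both and 45.9% of total-only transcripts. Among named genes in cap only, SLBP had 3006 footprints per 1000 nt, SRSF6 had 2372, FTL had 983 and FZD4 had 81.0. ACTG1, in total only and with near-identical copies, had 19277. TAF15 and EEF1A1 had no value.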

How the data were processed

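Small RNA of HEK293 cells was measured in 1 cap and 1 total library, each a group of its own. Per the file headers, the authors' lists hold a read count, a region and a distance from the start codon for each peak. Sources used here name neither peak caller nor genome build for them. Among the tools in the submitters' processing notes are STAR 2.7.10a, Bowtie 1.2.3, cutadapt 2.8 and bcl2fastq 2.20.0.422, with no role given. The deposited control Ribo-seq tables hold a signal per position relative to its transcript; per 1000 nt, footprints are the inverse of the common step of these values where at least 8 positions had reads. Genes were joined by symbol, or by transcript ID where none was given. Log2 ratios compare shares of each library's peak reads on a strand, and a difference was called at 2-fold. With 1 library per group no test was made. The members, gene groups and tests were chosen with earlier results of these data known. Named genes were, per strand, the 6 with the most reads in each class, the 6 highest and 6 lowest ratios among genes in both with at least 20 reads, and up to 4 genes per group by reads; other group members named, and all sequences, were chosen after their values were seen. Promoter letters come from RefSeq (GRCh38.p14), in which 1239 of 1983 genes with a cap 5' UTR peak had a single promoter. The footprint step and the ratio calls were tested on simulated data, and the gene classes, position sharing and peak joining on a small made-up table. The RefSeq start match and the searches of promoter letters and gene spans had no such test. Python 3.11.15, pandas 2.3.3, numpy 2.4.6, scipy 1.17.1 and matplotlib 3.10.9 were used. A few items that the named-gene rule or the sequence search gave are not reported here.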

Additional observations from a re-analysis of the deposited data

How the results depend on the processing

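No paired analysis was possible because each group has 1 library. With 1 library per kind, culture, library and RNA end cannot be told apart, and depth is unknown, so a gene missing from a list may lie just under 4 reads. Of 103 alternative values for 37 results, 48 stayed within counting error or 1.5 times and 55 moved; joining by transcript ID moved none, and in every setting the cap library had the larger 5' UTR share on the sense strand. The cause of the moves was not tested, beyond that stricter limits leave fewer peaks. With peaks of at least 8 reads, sense genes numbered 926 in cap only, 434 in both and 530 in total only, and antisense genes 294, 418 and 496; with at least 20 reads they were 333, 173 and 223 sense and 151, 209 and 185 antisense. At 8 reads 80 cap and 74 total genes had both strands, the share in cap only of sense 5' UTR genes was 85.6%, the 5' UTR share of sense peaks was 53.9% in cap and 17.2% in total, that of reads 48.1% and 25.6%, and that of antisense cap peaks 11.6%; shared positions were 34.2% of cap and 41.5% of total sense peaks and 55.3% and 40.8% of antisense ones. Cutting the longer list to near the length of the shorter left 3357 cap and 3416 total sense peaks, and 1810 and 1673 antisense ones. On the sense strand the share in cap only was then 84.2% (5' UTR), 17.9% (CDS) and 19.2% (3' UTR). On the antisense strand it was 46.7%, 36.5% and 38.5%, with 551 antisense genes in total only. Joining peaks within 5 nt gave a total sense 5' UTR share of 9.76%, and leaving out the 10 top genes gave 9.31% of peaks, with 42.1% of reads in cap and 8.60% in total. Positions matched within 5 nt were 25.9% of cap and 36.2% of total sense peaks and 59.1% and 45.5% of antisense ones; within 30 nt they were 26.6%, 38.6%, 59.5% and 46.9%. Ratio counts moved with a pseudocount of 1 read over all genes (2356 higher and 1299 lower sense, 948 and 1024 antisense), with reads as deposited (151 lower antisense) and with centring (169 higher and 202 lower antisense). Without WDR74, chosen after seeing the data, the median distance of total 5' UTR peaks was 133 nt instead of 331. Weighted by reads, the share of sense peaks in the 300 nt before the start codon was 4.60% in cap and 3.18% in total instead of 46.8% and 6.32%, and the in-frame share 39.0% in cap and 44.1% in total.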
